A study of Mus musculus with 12 samples.

Results

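Serum amyloid A and microbe-induced epithelial genes were followed in the mouse ileum after zinc and dexamethasone (Dex), a synthetic glucocorticoid. The 8 genes were Saa1, Saa2, Saa3, Fut2, Lcn2, Il18, Il22ra1 and Pigr. They were chosen by name from 54838 counted genes, and all 8 passed the filter on low counts that left 15938 genes for testing. C57BL/6J mice drank normal water or 25 mM ZnSO4 for 7 days, then received 200 µg Dex in PBS or PBS alone by injection, and the ileum was taken 2 h later. The groups were water + PBS, water + Dex, ZnSO4 + PBS and ZnSO4 + Dex, with 3 mice each and 1 RNA library per mouse. No group carried a mutation or a transgene. The gut microbes of these mice were not measured in the libraries, so the name of the gene group rests on what the genes are known for and not on a microbial readout here.

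Epithelial cells of the ileum sense commensal microbes directly and through cytokines of the underlying lymphoid cells. Group 3 innate lymphoid cells and Th17 cells release IL-22, which binds a receptor on the epithelium and activates STAT3, and IL-17 and IL-1 act with it through NF-kB. Known outputs are serum amyloid A proteins, antimicrobial lectins, fucosylation of surface glycans and siderophore-binding lipocalin. Serum amyloid A and lipocalin are also acute-phase products of the liver, and glucocorticoids act on many genes of this kind through their nuclear receptor.

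In RefSeq (GRCm38.p6), 7 of the 8 genes had an upstream entry; the exception was Fut2. The 250 bases before the RefSeq transcription start are printed for Saa1, Saa2 and Saa3, which share a gene cluster and a ZnSO4 response. They are also printed for Lcn2, which had the strongest Dex response. Capitals mark matches, on either strand, to a C/EBP motif (TTGCNNAA), to the core of a glucocorticoid receptor motif (ACANNNTGT) and to a shortened interferon-stimulated response element (GAAANNGAA).
Saa1 (chr7:46742981-46743230, minus strand): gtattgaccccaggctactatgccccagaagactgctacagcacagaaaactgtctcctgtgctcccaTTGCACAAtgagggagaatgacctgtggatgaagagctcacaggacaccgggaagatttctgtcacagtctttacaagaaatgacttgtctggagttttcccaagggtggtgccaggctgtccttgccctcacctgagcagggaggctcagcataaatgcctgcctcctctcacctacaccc
Saa2 (chr7:46751583-46751832, plus strand): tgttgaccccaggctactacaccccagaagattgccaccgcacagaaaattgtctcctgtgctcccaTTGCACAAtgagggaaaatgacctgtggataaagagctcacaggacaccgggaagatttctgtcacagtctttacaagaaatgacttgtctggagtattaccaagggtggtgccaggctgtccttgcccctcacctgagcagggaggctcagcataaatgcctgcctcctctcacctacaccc
Saa3 (chr7:46715677-46715926, minus strand): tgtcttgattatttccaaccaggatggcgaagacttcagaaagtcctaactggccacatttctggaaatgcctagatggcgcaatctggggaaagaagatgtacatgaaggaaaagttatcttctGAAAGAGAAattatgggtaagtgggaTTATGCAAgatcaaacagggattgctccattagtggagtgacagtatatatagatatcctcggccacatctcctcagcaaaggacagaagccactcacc
Lcn2 (chr2:32387740-32387989, minus strand): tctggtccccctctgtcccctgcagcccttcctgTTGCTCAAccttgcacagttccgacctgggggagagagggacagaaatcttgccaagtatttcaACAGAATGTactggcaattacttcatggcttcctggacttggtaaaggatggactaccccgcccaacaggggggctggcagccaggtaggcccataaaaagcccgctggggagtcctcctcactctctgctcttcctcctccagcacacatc
The Saa1 and Saa2 windows were 94.8% identical (238 of 251 aligned columns), whereas Saa1 and Saa3 shared 52.2%. The C/EBP letters began at position -182 in Saa1, -183 in Saa2, -99 in Saa3 and -216 in Lcn2, counted from the RefSeq transcription start. They were present in 9.56% of 32851 upstream windows of the same length. The glucocorticoid receptor core began at -152 in Lcn2 and at -187 in Pigr, and was present in 5.84% of all windows. The interferon-stimulated response element in Saa3 began at -125 and overlapped no other match (7.13% of all windows). A shortened NF-kB motif (GGANNNTCC, 7.27% of all windows) was found in Il22ra1 at -156, and a STAT motif (TTCNNNGAA, 7.02% of all windows) in none of the 7. Such matches describe the letters of these windows only.

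In GRCm38 coordinates the serum amyloid genes lay together on chromosome 7, Saa3 at chr7:46711998-46715700 (minus strand), Saa1 at chr7:46740497-46742980 (minus strand) and Saa2 at chr7:46751790-46754313 (plus strand). Fut2 lay on the same chromosome at chr7:45648591-45666394 (minus strand). Lcn2 was at chr2:32384633-32388252 (minus strand), Il18 at chr9:50554827-50581840 (plus strand), Il22ra1 at chr4:135728172-135752140 (plus strand) and Pigr at chr1:130826684-130852249 (plus strand). These spans are those of GENCODE M21, and some of their starts differ from the RefSeq starts used for the windows. By these spans the printed Lcn2 window lay wholly inside the gene, and the Saa2 and Saa3 windows ran partly into theirs. No exon of the 8 genes overlapped an exon of another gene. Of all 31-base stretches in the transcripts of Saa1, 46.0% also occurred in Saa2, and 44.4% of those of Saa2 occurred in Saa1. The authors excluded reads with more than 1 position, so the counts of both genes may miss reads from such stretches. Fut2 shared 3.88% of its stretches with Sec1.

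Total counts per library lay between 10760132 and 11827487. The treatments left their known marks: with ZnSO4 in PBS mice the metallothionein genes Mt1 and Mt2 rose (LFC, the log2 fold change, 4.79 and 5.38) and the zinc importer gene Slc39a4 fell (LFC -2.95), and with Dex in water mice the glucocorticoid targets Fkbp5, Tsc22d3 and Per1 rose (LFC 3.34, 3.10 and 2.07). The 8 epithelial markers (Epcam, Cdh1, Vil1, Krt8, Krt20, Cldn7, Cdx1 and Lgals4) were all detected, with summed normalised counts between 127482 in ZnSO4 + Dex mouse 2 and 185087 in water + Dex mouse 2. Markers of hepatocytes (Alb, Ahsg, Fgb and Serpina1c) stood apart in water + Dex mouse 3 and ZnSO4 + Dex mouse 2, with sums of 4439 and 2531 against 19.0 to 626 in the other 10 libraries. In PBS mice the hepatocyte sums were 62.2 to 594 on water and 24.1 to 101 on ZnSO4, and overlapped. The 3 hepatocyte markers tested had LFCs for ZnSO4 of -2.57 (Fgb) to -2.46 (Alb) in PBS mice, and none was called. B cell markers summed to between 117 and 5768, with overlapping ranges in all 4 groups. Markers of some cell types moved with ZnSO4. Summed goblet cell markers (Muc2, Clca1, Zg16, Fcgbp and Tff3) were 136106 to 137208 in water + PBS mice and 151665 to 180096 in ZnSO4 + PBS mice, and 153018 to 163097 against 176838 to 206799 in Dex mice. These groups did not overlap, and 1 of the 5 markers, the mucin gene Muc2, was called higher in both comparisons (LFC 0.88 and 0.83). Proximal enterocyte markers (Lct, Gata4, Fabp1 and Apoa4) summed to 1137 to 1880 in water + Dex mice and 165 to 617 in ZnSO4 + Dex mice, with no overlap, and to 717 to 1785 and 92.6 to 961 in the PBS groups, which overlapped. Smooth muscle markers (Acta2, Myh11, Des, Cnn1 and Tagln) summed to 15876 to 16895 in water + Dex mice and 18247 to 26373 in ZnSO4 + Dex mice, with no overlap, and overlapped between the PBS groups. None of the markers of the latter 2 lists was called for ZnSO4 by edgeR, and the part of these cells in the falls of the members was not tested. Marker sums moved with Dex too. In water mice the goblet cell sums did not overlap between PBS and Dex, nor did the epithelial sums (158665 to 173192 and 174906 to 185087). Distal enterocyte markers (Fabp6, Slc10a2, Slc51a and Slc51b) summed to 80039 to 94840 with PBS and 97357 to 117270 with Dex in water mice. In ZnSO4 mice these sums overlapped between PBS and Dex. The part of these cells in the Dex effects was not tested. In whole tissue, fewer cells of a type and less RNA per cell cannot be told apart.

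Because reads per gene scale with length, levels were compared between genes as normalised counts per kilobase of the longest coding transcript. In water + PBS mice Pigr stood highest at 14747 ± 1462 (mean ± SD, n = 3), followed by Saa1 at 5609 ± 2200, Il22ra1 at 426 ± 43.8, Il18 at 405 ± 79.1, Fut2 at 73.7 ± 23.8, Lcn2 at 47.5 ± 17.2, Saa3 at 25.9 ± 11.5 and Saa2 at 21.6 ± 7.56. The ranges of Il22ra1 and Il18 overlapped, as did those of neighbours from Fut2 down to Saa2, so their order was within the spread of the mice. The longest coding transcript of Saa3 had 2200 bases, against 609 for Saa1 and 652 for Saa2, and the place of Saa3 depends on that choice of transcript. After Dex the level of Lcn2 per kilobase was 1413 ± 118, behind Pigr and Saa1. The levels per kilobase of Saa1 and Saa2 use the whole transcript and were not corrected for excluded reads from the stretches that both genes share, so they may be too low, and the places of Saa1 and Saa2 in the order are uncertain to that extent. With ZnSO4 and PBS the level of Saa1 per kilobase was 146 ± 100, overlapping with Il18 at 158 ± 52.9. With ZnSO4 and Dex the second place went to Lcn2 at 825 ± 95.3, and Il22ra1, Saa1 and Il18 overlapped between 197 and 427.

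**Figure D1:**
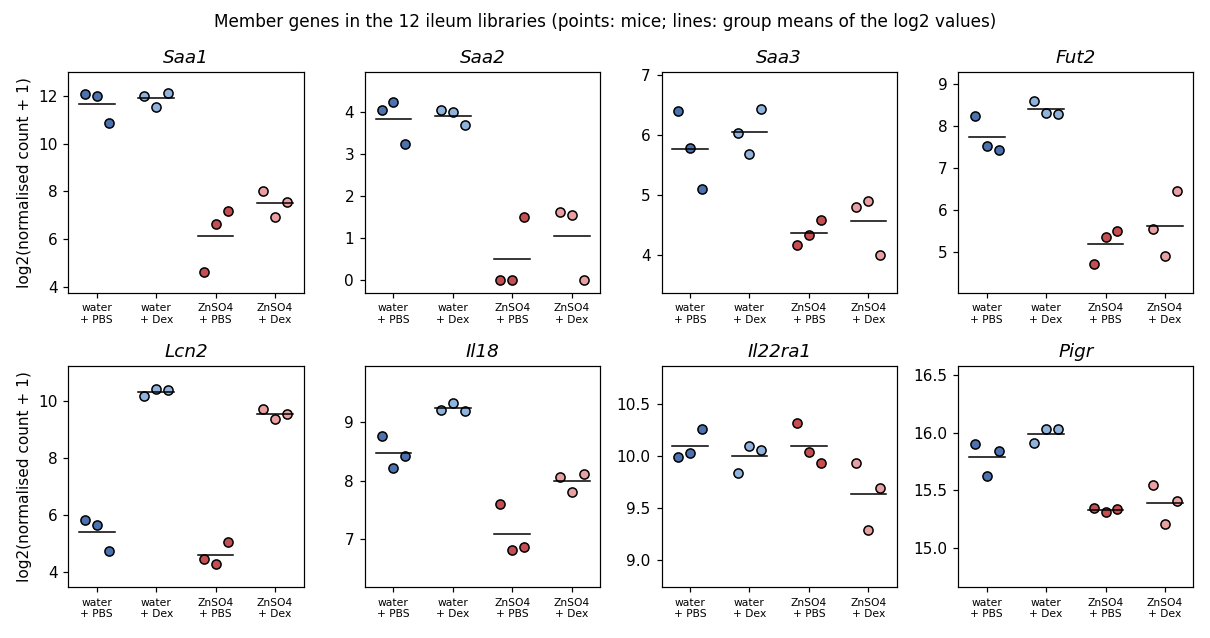
Each panel plots 1 gene, with the 4 groups on the x axis, log2(normalised count + 1) on the y axis, a point per mouse and a line at the group mean of the log2 values. Saa1, Saa2, Saa3, Fut2, Il18 and Pigr lie lower in every ZnSO4 mouse than in every water mouse with the same injection. Of all tested genes, 12.9% did so in PBS mice and 13.2% in Dex mice, and Lcn2 did so in Dex mice only. Lcn2 lies higher in every Dex mouse than in every PBS mouse, and Il22ra1 overlaps between water and ZnSO4 mice.

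Of the 8 genes, 5 were downregulated by ZnSO4 in PBS mice, and these were Saa1, Saa2, Saa3, Fut2 and Il18. A gene was called at a Benjamini-Hochberg adjusted p under 0.05 in edgeR's quasi-likelihood test over all 15938 genes and an LFC above 0.8 in size, and 0.954% of tested genes were called lower in this comparison. The same 5 genes were downregulated by ZnSO4 in Dex mice, where 1.20% of tested genes were called lower. The mice of the latter comparison are not those of the former. No member was called higher with ZnSO4 in either (0.747% and 0.696% of tested genes were). The median LFC of the 8 genes was -1.44 in PBS mice and -1.37 in Dex mice, against -0.01 and 0.01 over all tested genes. The members were chosen with earlier results of these data known, so these shares and medians are a description and not a test.

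Saa1 encodes a serum amyloid A apolipoprotein that the intestinal epithelium and the liver release. Its normalised counts were 4310, 4063 and 1876 in water + PBS mice 1, 2 and 3, and 23.6, 97.9 and 144 in ZnSO4 + PBS mice. The lowest water mouse stood more than 10-fold above the highest ZnSO4 mouse. The fall was 38.4-fold (LFC -5.26 ± 0.54 SE, adjusted p = 4.56e-04). In Dex mice Saa1 was at 4106, 2984 and 4474 on water and at 260, 120 and 184 on ZnSO4. These groups were again far apart, and the fall was 20.5-fold (LFC -4.36 ± 0.51, adjusted p = 0.00112).

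Dex had no detected effect on Saa1 in water mice, where the groups overlapped (LFC 0.17 ± 0.43, adjusted p = 0.857). In ZnSO4 mice the LFC for Dex was 1.08 ± 0.51 (adjusted p = 0.210), and the ranges of 23.6 to 144 and 120 to 260 overlapped. The interaction LFC of 0.90 ± 0.67 did not pass the test (adjusted p = 0.959). Liver RNA was measured beside these values, because Saa1 is also a liver product. The library with most Alb, water + Dex mouse 3, had the highest Saa1 of its group, and ZnSO4 + Dex mouse 2, with 2291 Alb reads, had the lowest of its group. Water + Dex mouse 1 had 15 Alb reads and a Saa1 of 4106. Without both Alb-rich libraries the LFC for ZnSO4 in Dex mice was -4.00 (adjusted p = 0.0135). In PBS mice the liver marker sums were 62.2 to 594 on water and 24.1 to 101 on ZnSO4. The part of liver RNA in the Saa1 values was not tested.

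**Figure D2:**
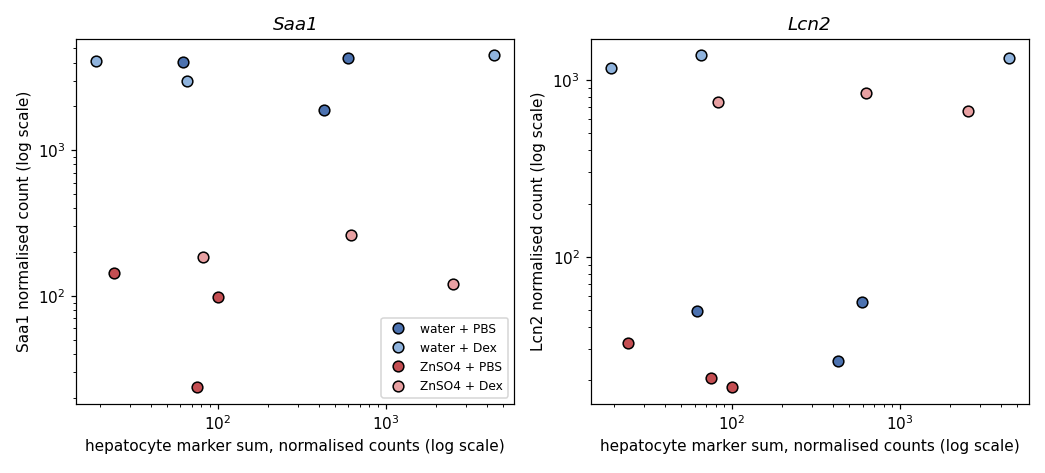
Points are the 12 libraries, with the summed normalised count of Alb, Ahsg, Fgb and Serpina1c on the x axis and the normalised count of Saa1 (left) or Lcn2 (right) on the y axis, all on log scales and coloured by group. The liver marker sum runs from 19.0 to 4439 in water mice, with Saa1 between 1876 and 4474, and from 24.1 to 2531 in ZnSO4 mice, with Saa1 between 23.6 and 260; Lcn2 lies between 18.3 and 55.4 in PBS mice and between 669 and 1375 in Dex mice.

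Saa2, the close relative of Saa1, was counted at a far lower level. Its read counts were 16, 18 and 9 in water + PBS mice and 0, 0 and 2 in ZnSO4 + PBS mice. They were 14, 14 and 11 in water + Dex mice and 2, 2 and 0 in ZnSO4 + Dex mice. Every water mouse stood above every ZnSO4 mouse, and every ZnSO4 library was under the floor of 3 reads. Summed over 3 libraries and scaled to library size, Saa2 was 22.6-fold lower with ZnSO4 in PBS mice (exact 95% Poisson interval 5.88 to 192, 2 against 43 reads) and 10.4-fold lower in Dex mice (3.77 to 40.2, 4 against 39 reads). These intervals cover counting error only. The test called both falls (adjusted p = 0.0106 and 0.0207). In Dex mice the call was lost when water + Dex mouse 1 or 2 or ZnSO4 + Dex mouse 1 or 2 was left out (adjusted p = 0.0682, 0.0650, 0.0538 and 0.0512). It was also lost without both Alb-rich libraries (0.0922) and with the mean log2 level of the epithelial markers as a covariate (0.0625).

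Dex left Saa2 within the spread of the water mice (LFC 0.02 ± 0.47, adjusted p = 0.990). In ZnSO4 mice both groups were under the floor, so no fold is given.

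Saa3, a serum amyloid A expressed by epithelium, macrophages and fat, moved less. Its normalised counts were 83.7, 54.2 and 33.3 in water + PBS mice and 17.0, 19.2 and 23.2 in ZnSO4 + PBS mice. In Dex mice they were 64.7, 50.8 and 85.4 on water and 27.0, 28.8 and 15.0 on ZnSO4. The groups did not overlap in either comparison, and the fall was 2.87-fold in PBS mice (LFC -1.52 ± 0.35, adjusted p = 0.0344) and 2.82-fold in Dex mice (LFC -1.50 ± 0.35, adjusted p = 0.0339).

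The calls of Saa3 were close to the threshold. In PBS mice the adjusted p was 0.0530 to 0.124 when water + PBS mouse 1 or 2, water + Dex mouse 1 or any 1 of the ZnSO4 + PBS mice was left out, and 0.0832 with only the groups compared in the fit. In Dex mice it was 0.0527 to 0.127 when any 1 of the 6 mice compared was left out, 0.155 without both Alb-rich libraries and 0.0648 with the epithelial covariate. Summed macrophage markers (Cd68, Adgre1, Csf1r, Itgam, Cx3cr1 and C1qa) were 1897 to 2436 in water + PBS mice and 1658 to 1829 in ZnSO4 + PBS mice, and overlapped between the Dex groups at 2038 to 2378 and 1904 to 2087. Of these 6 markers 1, the integrin gene Itgam, was called lower with ZnSO4 in both comparisons (LFC -0.82 and -1.05), at 111 to 150 in water + Dex mice and 58.6 to 71.6 in ZnSO4 + Dex mice. Adipocyte markers (Adipoq, Plin1, Cidec and Lep) summed to 257 to 1897 over all libraries and overlapped between the groups compared, in Dex mice at 757 to 1897 on water and 370 to 824 on ZnSO4. The part of these cells in the Saa3 values was not tested. Dex changed Saa3 by less than the spread of the mice in water (LFC 0.23 ± 0.33, adjusted p = 0.730) and ZnSO4 mice (LFC 0.26 ± 0.37, adjusted p = 0.721).

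Fut2 encodes the fucosyltransferase that puts fucose on the surface glycans of epithelial cells, where commensals can use it. Normalised counts were 299, 184 and 171 in water + PBS mice and 25.5, 40.3 and 44.5 in ZnSO4 + PBS mice. In Dex mice they were 385, 316 and 310 on water and 45.6, 28.8 and 86.5 on ZnSO4. The water and ZnSO4 mice were separated by wide gaps under both injections. The fall was 5.91-fold in PBS mice (LFC -2.56 ± 0.36, adjusted p = 0.00304) and 6.30-fold in Dex mice (LFC -2.66 ± 0.36, adjusted p = 0.00220).

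All 3 water + Dex mice had more Fut2 than the highest water + PBS mouse, but the difference did not pass the test (LFC 0.63 ± 0.32, adjusted p = 0.281), and in this comparison 15.2% of tested genes had their Dex mice above all PBS mice. The LFC for Dex in ZnSO4 mice was 0.54 ± 0.37 (adjusted p = 0.410).

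Of 14 other genes of fucose transfer and GDP-fucose supply, 12 were tested and none was called for ZnSO4 by edgeR in either comparison. Their lowest LFC in PBS mice was that of Gmds, an enzyme of GDP-fucose synthesis (-0.80). With Dex, Fut4, a fucosyltransferase that acts at another position of the glycan, rose 2.47-fold in water mice (LFC 1.31 ± 0.11, adjusted p = 1.98e-05) and 2.33-fold in ZnSO4 mice (LFC 1.22 ± 0.11, adjusted p = 2.97e-05).

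Il18 encodes a cytokine that epithelial cells hold as a precursor until caspases cleave it. Its normalised counts were 435, 298 and 341 in water + PBS mice and 194, 111 and 116 in ZnSO4 + PBS mice. In Dex mice they were 595, 646 and 587 on water and 268, 223 and 278 on ZnSO4. Il18 was highest in the water + Dex mice and lowest in the ZnSO4 + PBS mice. ZnSO4 lowered it 2.55-fold in PBS mice (LFC -1.35 ± 0.21, adjusted p = 0.00470) and 2.38-fold in Dex mice (LFC -1.25 ± 0.20, adjusted p = 0.00544). Without both Alb-rich libraries the latter LFC was -1.19 and missed the threshold (adjusted p = 0.0552).

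Dex moved Il18 the other way. In ZnSO4 mice it rose 1.82-fold (LFC 0.87 ± 0.21, adjusted p = 0.0153). In water mice all Dex mice lay above all PBS mice, as for 15.2% of tested genes. The adjusted p there was 0.0295, but the LFC of 0.77 ± 0.20 was under the cut-off of 0.8. The call in ZnSO4 mice was lost when ZnSO4 + PBS mouse 2 or 3 or ZnSO4 + Dex mouse 1 was left out (adjusted p = 0.0587, 0.0603 and 0.0514), and the LFC in water mice rose to 0.93 and was called without water + PBS mouse 1 (adjusted p = 0.0254). With both treatments Il18 was at an LFC of -0.48 ± 0.20 relative to water + PBS (adjusted p = 0.105). The interaction LFC was 0.10 ± 0.28 (adjusted p = 0.986).

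All 12 other genes of IL-18 maturation and signalling were tested. With ZnSO4 in PBS mice 1 was called, Il18bp, the secreted protein that neutralises IL-18 (LFC -2.06 ± 0.19, adjusted p = 2.62e-04). In Dex mice 3 fell: Il18bp (LFC -2.23 ± 0.19, adjusted p = 1.55e-04), the pore-forming gasdermin Gsdmd (LFC -0.94) and the inflammatory caspase Casp4 (LFC -1.01). Gsdmd came under the cut-off without ZnSO4 + Dex mouse 2 (LFC -0.79) and with the epithelial covariate (-0.74). The LFC of the whole list had a median of -0.41 and -0.33 in the respective comparisons.

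Lcn2, which encodes the lipocalin that binds bacterial siderophores, had the largest Dex response of the 8 members. It was the only one of the 8 called for Dex in water mice, where 2.79% of tested genes were called higher, and 1 of 2 called in ZnSO4 mice, where 3.41% were called higher. Normalised counts were 55.4, 49.2 and 25.7 in water + PBS mice and 1171, 1375 and 1335 in water + Dex mice. On ZnSO4 they were 20.7, 18.3 and 32.4 with PBS and 843, 669 and 754 with Dex. Every Dex mouse stood more than 10-fold above every PBS mouse with the same water. The rise was 29.8-fold in water mice (LFC 4.90 ± 0.24, adjusted p = 5.23e-07) and 31.5-fold in ZnSO4 mice (LFC 4.98 ± 0.25, adjusted p = 5.64e-07). The interaction LFC was 0.08 ± 0.33 (adjusted p = 0.990).

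ZnSO4 values of Lcn2 were lower within each injection. In Dex mice the groups did not overlap, and the LFC of -0.78 ± 0.19 had an adjusted p of 0.0450 but was under the cut-off. In PBS mice the LFC was -0.86 ± 0.28 (adjusted p = 0.110), the ranges of 25.7 to 55.4 and 18.3 to 32.4 overlapped, and without water + PBS mouse 3 the LFC was -1.13 and called (adjusted p = 0.0207), as it was by DESeq2 (adjusted p = 0.0271).

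Neutrophils store lipocalin in their granules, so their markers were measured beside Lcn2. Of the 8 markers 2 were tested, and the summed normalised count of all 8 was 17.6 to 100 over the 12 libraries. The granule genes Mpo and Ngp were at 0 reads in all libraries, so they cannot separate the groups. The sums were 20.5 to 44.3 in water + Dex mice and 17.6 to 20.3 in ZnSO4 + Dex mice. In the respective PBS groups they were 31.4 to 100 and 24.5 to 39.8. The part of neutrophils in the Lcn2 values was not tested. Water + Dex mouse 1 had 15 Alb reads and an Lcn2 of 1171, and without both Alb-rich libraries the LFC for Dex was 4.87 in water mice and 5.06 in ZnSO4 mice (adjusted p = 8.00e-06 and 6.64e-06). The part of liver RNA in the Lcn2 values was not tested either.

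**Figure D3:**
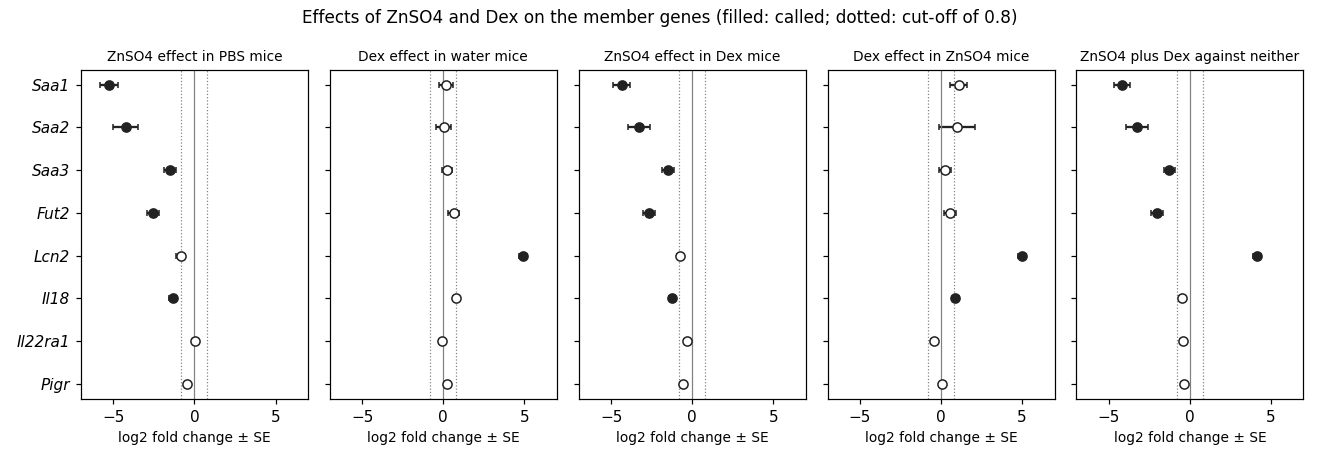
Each panel is 1 comparison, with the 8 genes on the y axis and the LFC with its SE on the x axis; filled points were called and dotted lines mark the cut-off of 0.8. Saa1, Saa2, Saa3, Fut2 and Il18 sit left of the cut-off in both ZnSO4 panels, Lcn2 sits near 5 in both Dex panels, and Il22ra1 and Pigr sit within the dotted lines in all panels.

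Il22ra1 encodes the receptor chain through which epithelial cells bind IL-22. Normalised counts were 1016, 1046 and 1224 in water + PBS mice and 1273, 1049 and 973 in ZnSO4 + PBS mice. With Dex they were 913, 1094 and 1067 on water and 977, 624 and 824 on ZnSO4. The PBS groups lay within the same range, with an LFC for ZnSO4 of 0.00 ± 0.15 (adjusted p = 0.991). In Dex mice the groups overlapped too, at an LFC of -0.34 ± 0.16 (adjusted p = 0.259). Relative to water + PBS, the ZnSO4 + Dex mice had an LFC of -0.44 ± 0.16 (adjusted p = 0.0633). ZnSO4 + Dex mouse 2, the lowest for Il22ra1, was also the library with the lowest epithelial marker sum. The markers differed in that library. Epcam, Cdh1, Vil1, Krt20 and Cldn7 were at their lowest, whereas Krt8 and Lgals4 lay within their water + PBS range and Cdx1 above it. With the mean log2 level of the epithelial markers as a covariate the LFC for ZnSO4 in Dex mice was -0.14 (adjusted p = 0.738). The part of epithelial cell number in the Il22ra1 values was not tested.

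Pigr encodes the receptor that carries polymeric IgA across the epithelium into the lumen, and it was the most abundant member in all groups. Normalised counts were 61067, 50394 and 58825 in water + PBS mice and 41594, 40626 and 41416 in ZnSO4 + PBS mice. In Dex mice they were 61610, 67006 and 66759 on water and 47931, 37819 and 43472 on ZnSO4. Every ZnSO4 mouse stood below every water mouse, but the size was moderate: 1.38-fold in PBS mice (LFC -0.46 ± 0.15, adjusted p = 0.102) and 1.51-fold in Dex mice (LFC -0.60 ± 0.15, adjusted p = 0.0435, under the cut-off of 0.8). Of all tested genes, 12.9% in PBS mice and 13.2% in Dex mice had their ZnSO4 mice below all water mice, and of the 8 members 6 and 7 did.

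The cargo of Pigr comes from plasma cells. Their summed markers (Jchain, Sdc1, Mzb1, Derl3, Tnfrsf17 and Igha) were 116582 to 129099 in water + PBS mice and 79949 to 103202 in ZnSO4 + PBS mice. In Dex mice they were 96435 to 135052 on water and 79528 to 115838 on ZnSO4, and overlapped. Of these 6 markers 1 was called lower with ZnSO4 in each comparison, Derl3 in PBS mice (LFC -0.90) and Mzb1 in Dex mice (LFC -1.15). Epithelial marker sums overlapped between water and ZnSO4 mice with PBS (158665 to 173192 and 147282 to 171123). In Dex mice these sums were 174906 to 185087 on water and 127482 to 176548 on ZnSO4. Of the ZnSO4 + Dex mice only mouse 3 reached the water range. The LFC of Pigr for ZnSO4 was also fitted with the mean log2 level of the epithelial markers as a covariate. It was -0.45 in PBS mice (adjusted p = 0.0356) and -0.48 in Dex mice (adjusted p = 0.0963). The part of plasma cells in the Pigr values was not tested. All 7 genes of immunoglobulin cargo and transport were tested and none was called for ZnSO4 by edgeR, with a median LFC of -0.45 in PBS mice and -0.38 in Dex mice. Fcgrt, the neonatal Fc receptor that carries IgG, rose with Dex in water mice (LFC 0.86 ± 0.15, adjusted p = 0.00287) and in ZnSO4 mice (LFC 1.08 ± 0.15), and came under the cut-off in water mice without water + PBS mouse 2 (LFC 0.78).

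With both treatments against neither, 4 members were lower (4.56% of tested genes were called lower) and 1 was higher (5.10% called higher). Saa1 was 18.2-fold lower (LFC -4.19 ± 0.51, adjusted p = 1.47e-04), Fut2 was 4.07-fold lower (LFC -2.03 ± 0.35, adjusted p = 0.00164) and Saa3 was 2.40-fold lower (LFC -1.26 ± 0.35, adjusted p = 0.0226). Saa2 was called lower (adjusted p = 0.00525) at 4 against 43 reads, a ratio of 10.3 with an exact 95% Poisson interval of 3.74 to 39.4. Lcn2 was 17.4-fold higher (LFC 4.12 ± 0.24, adjusted p = 8.12e-07). The Saa3 call was lost without water + PBS mouse 1 or ZnSO4 + Dex mouse 3 (adjusted p = 0.0912 and 0.0729). This comparison shares its control mice with the single treatments.

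None of the 8 members passed the interaction test of ZnSO4 and Dex, by edgeR or by DESeq2, and none had an unadjusted p under 0.05 in edgeR. Over all tested genes edgeR found 0 (0% of 15938) at an adjusted p under 0.05 and 794 (4.98%) at an unadjusted p under 0.05, and DESeq2 found 6. The interaction LFC of the members lay between -0.35 (Il22ra1) and 0.98 (Saa2, with an SE of 1.20).

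**Figure D4:**
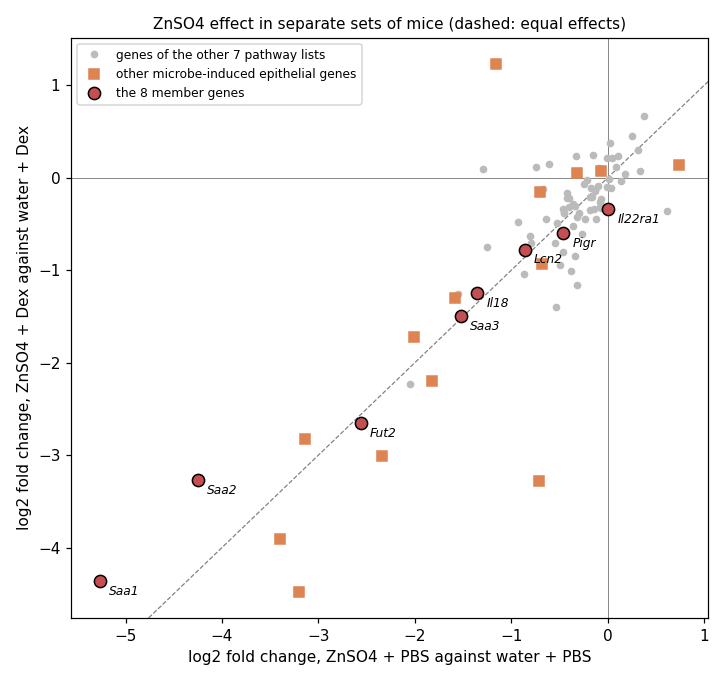
Each point is a gene, with its LFC for ZnSO4 in PBS mice on the x axis and in Dex mice on the y axis, 2 comparisons with no mouse in common; red circles are the 8 members, orange squares other microbe-induced epithelial genes and grey points the genes of the other pathway lists. Saa1 and Saa2 lie farthest to the lower left of the members at -5.26 and -4.25 on the x axis, beside Duoxa2, Ubd and Reg3g, while most grey points lie within 1 of the origin.

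The other genes of the pathway were listed by role. Of the ligands and inducing cytokines (Il22, Il17a, Il17f, Il17c, Il23a, Il12b, Il1a, Il1b, Il6 and Il33), 3 of 10 passed the filter. Il22 had 10, 2 and 0 reads in water + PBS mice and at most 1 read in any other library. Il17a had 11, 14 and 5 reads in water + PBS mice, 2 in each ZnSO4 + PBS mouse, at most 1 in water + Dex mice and 0 in ZnSO4 + Dex mice. These counts were too low to be tested. Of the 3 tested, none was called for ZnSO4 by edgeR. Il1b fell with Dex, for which 1.64% of tested genes were called lower in water mice and 2.40% in ZnSO4 mice. Its fall was seen in water mice (LFC -3.85 ± 0.43, adjusted p = 1.64e-04) and in ZnSO4 mice (LFC -2.46 ± 0.44, adjusted p = 0.00287).

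None of the 13 receptors and transducers, among them Il10rb, the partner of Il22ra1, and Stat3, was called for ZnSO4 by edgeR, and their median LFC was -0.13 in PBS mice and -0.08 in Dex mice. With Dex, Il6ra, the IL-6 receptor chain, rose in water mice (LFC 0.86 ± 0.14, adjusted p = 0.00263). It came under the cut-off without water + PBS mouse 1 (LFC 0.73).

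Of 12 regulators, 3 fell with ZnSO4 in PBS mice and 0 in Dex mice. Nfkbiz, an NF-kB cofactor, had an LFC of -1.25 ± 0.19 (adjusted p = 0.00542). Irf1, an interferon regulatory factor, had an LFC of -0.80 ± 0.10 (adjusted p = 0.00148), at the cut-off, and came under it with RLE or upper-quartile factors (-0.79 and -0.78) and without water + PBS mouse 1 or 2, water + Dex mouse 2 or 3 or ZnSO4 + PBS mouse 3 (LFC -0.80 to -0.71). Socs3, a feedback inhibitor of STAT3 signalling, had an LFC of -1.56 ± 0.38 (adjusted p = 0.0402) and an adjusted p of 0.0514 to 0.139 when 9 of the 12 libraries were left out in turn. With Dex, Irf1 (LFC -1.18), the NF-kB cofactor Bcl3 (LFC -2.31) and Socs3 (LFC -2.06) fell in water mice. Whether the effects of ZnSO4 on Nfkbiz, Irf1 and Socs3 differed between PBS and Dex mice did not pass the interaction test.

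Of 15 other microbe-induced epithelial genes 14 were tested, and 6 fell with ZnSO4 in each comparison: Duoxa2, Duox2, Reg3g, Ubd, Reg3b and Nos2. The list's median LFC was -1.37 in PBS mice and -1.51 in Dex mice. Duoxa2, the maturation factor of the epithelial hydrogen peroxide source Duox2, had normalised counts of 1136 ± 144 in water + PBS and 108 ± 19.2 in ZnSO4 + PBS mice (LFC -3.39 ± 0.27, adjusted p = 1.19e-04). Reg3g, an antimicrobial lectin, was at 111063 ± 42683 and 12637 ± 3342 (LFC -3.14 ± 0.39, adjusted p = 0.00141). In Dex mice Reg3g was at 107131 ± 4307 on water and 15139 ± 6275 on ZnSO4 (LFC -2.82 ± 0.38, adjusted p = 0.00230). Ubd, a ubiquitin-like modifier induced by inflammatory cytokines, fell 9.20-fold and 22.3-fold in the respective comparisons.

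With Dex in water mice 3 of these 14 fell, where 1.64% of all tested genes did, and none rose. Cxcl5, a neutrophil chemokine, had an LFC of -4.11 ± 0.82 (adjusted p = 0.0114). Of the 11 partners of serum amyloid A and lipocalin, 8 were tested, and 1 was called for ZnSO4, Tlr2, a receptor for bacterial lipoproteins and for serum amyloid A (LFC -0.87 ± 0.19 in PBS mice, adjusted p = 0.0292, and -1.04 ± 0.20 in Dex mice, adjusted p = 0.0139). In PBS mice Tlr2 lost its call without water + PBS mouse 1 or 2 or ZnSO4 + PBS mouse 1 or 2 (adjusted p = 0.0762 to 0.112), and in Dex mice without water + Dex mouse 3 or ZnSO4 + Dex mouse 1 (0.0600 and 0.0538) or without both Alb-rich libraries (0.0905).

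The genes whose pattern over the 12 libraries was most like each member were ranked by Pearson's r of log2 CPM, among 14964 genes. The libraries share the 4 groups, so r describes mostly the group pattern. For Saa1 the nearest was Reg3g (r = 0.975), followed by Unc5cl (0.964) and Pla2g5 (0.960), and for Fut2 they were Reg3b (0.970), Reg3g (0.969) and Cycs (0.965). Saa2 stood nearest to the interferon-inducible genes Gm12250 (0.985), Zbp1 (0.968) and Ifi47 (0.967), and Saa3 to Gm12250 (0.950), Spcs2-ps (0.943) and Ly6a (0.941). Saa2 had at most 2 reads in every ZnSO4 library, so its r reflects mainly the difference between water and ZnSO4 mice. For Lcn2 they were BB123696 (0.995), Srd5a2 (0.990) and Hipk1 (0.988), and for Il18 Me2 (0.960), Mapk13 (0.955) and Hk2 (0.951). Il22ra1 was nearest to Rps6kc1 (0.953), Tent4b (0.936) and Synj2bp (0.932), and Pigr to Sppl2a (0.972), B2m, the light chain of MHC class I (0.963), and Nxf7 (0.960).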

How the data were processed

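Ileum RNA was prepared as stranded libraries and sequenced single-end. Per the study's methods and the submitters' processing notes, the authors mapped reads to mm10 with HISAT2 2.0.4, counted reads per gene with featureCounts and left out reads with more than 1 position. The annotation release and strand setting are not given in the sources used here. The values deposited by the authors are raw counts of 54838 genes. Symbols and positions came from GENCODE M21 (GRCm38, the same assembly as mm10), promoters from RefSeq. Total counts ranged from 10760132 to 11827487.

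Analyses used R 4.3.3. Genes passing edgeR 4.0.16 filterByExpr (minimum count 10) were fitted in 1 quasi-likelihood model with 4 group means and TMM factors (glmQLFit, glmQLFTest). Calls needed a Benjamini-Hochberg adjusted p under 0.05 over 15938 genes and an LFC above 0.8 in size, the study's cut-offs, the latter not for the interaction. Normalised counts are counts per mean effective library size. CPM for the ranking of like genes used a prior count of 2 and genes with a mean CPM of at least 1. Poisson intervals are at 95%. An exact permutation test of 3 mice against 3 cannot go below p = 0.1, so none was used. Scripts were tested on simulated data. DESeq2 1.42.0, other normalisations, filters, cut-offs, covariates and left-out libraries were alternatives. The members were given by name, the other genes are up to 4 called genes of each list with the smallest adjusted p and the 3 genes most like each member, and Reg3b, Nos2, Gmds, Stat3 and Il10rb and the marker genes were named beside their lists' counts. Members and lists were chosen with earlier results of these data known. The labels number the mice of a group without saying that they came from separate cages or days, and p-values measure the spread between these mice.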

Additional observations from a re-analysis of the deposited data

How the results depend on the processing

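Over the 8 members and 6 comparisons, 1160 alternative values were computed, of which 1079 kept direction and side of the threshold, 40 lost the call, 7 gained it and 34 changed sign, all 34 in results that were not called. The ZnSO4 calls of Saa1 and Fut2 and the Dex calls of Lcn2 held under every alternative run, Saa1 with an LFC of -5.80 to -4.82 in PBS mice and -4.67 to -4.00 in Dex mice. DESeq2 gave Saa2 no adjusted p for ZnSO4, so that value was left out. Saa2 was also absent, in every comparison, from the run with a stricter filter on the counts of each library. Upper-quartile or RLE factors changed no member's direction.

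The count of members called for ZnSO4 in PBS mice was 2 instead of 5 when glmTreat tested against 0.8 (4 to 6 when libraries were left out in turn). For ZnSO4 in Dex mice it was 2 with glmTreat, 3 with the epithelial markers as a covariate, 2 without both Alb-rich libraries and 7 with no cut-off, when Lcn2 and Pigr were added (3 to 5 with single libraries left out). For Dex in water mice it was 2 instead of 1 with no cut-off (1 to 2), and for Dex in ZnSO4 mice 1 instead of 2 with only the groups compared in the fit, with a cut-off of 1 and with glmTreat (1 to 2). With both treatments it was 4 to 5, and for the interaction 0 throughout. The Alb and B cell alternatives were chosen after seeing the data. The cause of these shifts was not tested, except that a stricter cut-off removes smaller effects by construction.

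The labels do not say whether the replicate numbers pair the mice. Deviations from the group means had a median r of -0.06 over 18 same-numbered pairs (-0.36 to 0.46) and 0.02 over 36 others (-0.47 to 0.44). Of 12 libraries, 4 correlated best with their own number. With so few mice these values cannot show whether same-numbered mice shared a cage or day. A replicate block left 4, 1, 4, 2, 5 and 0 members called, in the order ZnSO4 in PBS mice, Dex in water mice, ZnSO4 in Dex mice, Dex in ZnSO4 mice, both treatments and interaction. The call lost in each ZnSO4 comparison was that of Saa3 (adjusted p = 0.0666 and 0.0574).

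Over all tested genes, counts of calls ranged from 40 to 742 (271 in the reported fit) for ZnSO4 in PBS mice, from 194 to 1582 (705) for Dex in water mice, from 38 to 696 (303) for ZnSO4 in Dex mice, from 275 to 2189 (926) for Dex in ZnSO4 mice and from 437 to 3719 (1540) for both treatments.

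Signs turned only near 0. With libraries left out in turn, the LFC of Il22ra1 for ZnSO4 in PBS mice ranged from -0.115 to 0.0919, those of Saa1, Saa2 and Saa3 for Dex in water mice from -0.12 to 0.38, from -0.24 to 0.24 and from -0.043 to 0.62, and that of Pigr for Dex in ZnSO4 mice from -0.020 to 0.15. Interaction LFCs ranged from -0.36 to 0.30 (Saa3), from -0.62 to 0.21 (Fut2), from -0.13 to 0.37 (Lcn2) and from -0.064 to 0.41 (Il18). The B cell covariate gave Saa2 -0.018 for Dex in water mice and the Saa3 interaction -0.024. The Saa3 interaction was -0.039 with the replicate block and -0.31 with the epithelial covariate, and the Fut2 interaction 0.25 with that covariate and 0.16 without both Alb-rich libraries. Low counts limit Saa2, whose ZnSO4 libraries held at most 2 reads.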
